A study of Homo sapiens with 9 samples.

Results

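Ribosome biogenesis genes encode the proteins that transcribe, cut, modify and fold ribosomal RNA (rRNA) and assemble it with ribosomal proteins in the nucleolus. The 53 genes described here were taken from a list of symbols for RNA polymerase I transcription, small nucleolar ribonucleoprotein (snoRNP), pre-rRNA processing and assembly factors, and each symbol matched 1 of the 60664 genes in the count table. Gene expression was measured by RNA-seq of total RNA depleted of rRNA in HEK293T cells, an immortalised line derived from human embryonic kidney. All groups were wild-type HEK293T cells grown at 37 °C. The untreated cells (NC, 2 libraries) were compared with cells exposed to 43 °C for 1 h in a water bath (H1, 2 libraries) and with cells that were returned to 37 °C after the same heat for 1 h (H1R1, 2 libraries), 6 h (H1R6, 2 libraries) or 18 h (H1R18, 1 library). The comparisons address how transcript levels of the ribosome assembly pathway differed during heat stress and recovery.

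Ribosome production starts with the transcription of a long pre-rRNA by RNA polymerase I. Box C/D snoRNPs methylate and box H/ACA snoRNPs pseudouridylate this transcript, while the small subunit (SSU) processome folds and cleaves it. Separate sets of factors then build the pre-40S and pre-60S particles, which mature in the nucleolus, nucleoplasm and cytoplasm. The pathway is a large consumer of energy in growing cells, and the nucleolus is a well-known site of change under heat.

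The libraries held between 3814195 and 6221613 counts assigned to genes, and a member gene had between 10 and 8861 counts in a library. All 53 genes passed the filter on low counts, as did 21139 genes in all. The 8 genes listed as markers of HEK293T were detected in every library, with a summed level of 521 to 534 CPM (counts scaled to a common library size) in NC, 570 to 594 in H1, 664 to 714 in H1R1, 570 to 579 in H1R6 and 541 in H1R18. Of 10 markers of other cell types, CD3E and KRT5 had no count in any library and PTPRC had counts in 1 library only, whereas COL1A1 reached 44.0 to 64.2 CPM. The summed level of these 10 markers was 69.4 to 72.0 CPM in NC, 63.9 to 72.0 in H1, 50.6 to 64.9 in H1R1, 52.3 to 69.6 in H1R6 and 74.9 in H1R18. The part of either marker list in the results was not tested. Nothing in the sample descriptions says that the libraries of a group came from separate cultures, so the p-values measure only the spread between these libraries. H1R18 had no replicate and was assumed to vary like the other groups. Fewer cells and less RNA per cell cannot be told apart in these bulk samples, and all levels are relative to the other transcripts of a library.

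The promoter sequences are shown first because the same short motif recurred beside the start sites of the members. RefSeq promoter windows of GRCh38.p14, reaching from 250 bases before to 50 bases after a start site, were matched by symbol for 44 of the 53 genes (52 windows). No window was matched for TCOF1, NOLC1, NOP58, DDX52, RRP12, BOP1, RRP1B, RRS1 and DDX18. The E-box CACGTG, a palindrome that is read alike on both strands and is the classical site of MYC and MAX, was found in 21 of the 52 windows (40.4%), compared with 7.26% of all 35116 windows and 8.89% of the 17753 windows of genes in the fit. An E-box lay within 50 bases of the start in 18 of the 52 windows (34.6%), compared with 2.82% of all windows and 3.49% of those of genes in the fit. The following stretches of 100 bases, from 50 before to 50 after the start and written 5′ to 3′ with the E-box in capitals, belong to the 8 members with the largest rises at H1R1 among those that carried an E-box here, to FBL, which carried an E-box but was not called, and to NOP16 and BRIX1, which rose strongly without one.
NOP2: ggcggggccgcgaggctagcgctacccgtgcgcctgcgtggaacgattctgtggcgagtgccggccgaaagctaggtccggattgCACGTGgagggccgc
PNO1: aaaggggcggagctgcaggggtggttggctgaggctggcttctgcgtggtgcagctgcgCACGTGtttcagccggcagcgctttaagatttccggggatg
NOL6: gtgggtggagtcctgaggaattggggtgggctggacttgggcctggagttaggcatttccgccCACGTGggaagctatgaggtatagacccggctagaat
RRP9: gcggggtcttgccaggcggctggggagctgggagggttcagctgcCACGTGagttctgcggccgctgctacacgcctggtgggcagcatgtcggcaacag
DDX21: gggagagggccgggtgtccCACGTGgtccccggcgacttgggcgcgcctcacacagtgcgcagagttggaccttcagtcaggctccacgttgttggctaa
UTP18: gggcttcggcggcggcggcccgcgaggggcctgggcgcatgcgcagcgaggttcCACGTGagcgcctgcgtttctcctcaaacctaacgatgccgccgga
UTP4: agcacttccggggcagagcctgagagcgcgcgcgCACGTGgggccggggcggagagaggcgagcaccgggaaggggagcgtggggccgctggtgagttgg
UTP20: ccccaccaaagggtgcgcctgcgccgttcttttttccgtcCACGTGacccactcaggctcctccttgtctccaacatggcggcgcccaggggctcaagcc
FBL: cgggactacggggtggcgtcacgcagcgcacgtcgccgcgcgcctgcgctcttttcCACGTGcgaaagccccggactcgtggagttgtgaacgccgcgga
NOP16: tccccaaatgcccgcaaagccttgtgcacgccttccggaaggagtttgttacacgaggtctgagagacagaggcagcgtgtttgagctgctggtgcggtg
BRIX1: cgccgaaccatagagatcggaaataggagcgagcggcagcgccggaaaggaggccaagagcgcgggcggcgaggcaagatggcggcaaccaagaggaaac
The coordinates of these stretches are NOP2 at chr12:6568242-6568341 (minus strand), PNO1 at chr2:68157838-68157937 (plus strand), NOL6 at chr9:33473875-33473974 (minus strand), RRP9 at chr3:51941855-51941954 (minus strand), DDX21 at chr10:68956597-68956696 (plus strand), UTP18 at chr17:51260496-51260595 (plus strand), UTP4 at chr16:69132599-69132698 (plus strand), UTP20 at chr12:101280055-101280154 (plus strand), FBL at chr19:39846330-39846429 (minus strand), NOP16 at chr5:176388549-176388648 (minus strand), BRIX1 at chr5:34915661-34915760 (plus strand).

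The E-box began 5, 31, 16 and 10 bases before the start in RRP9, DDX21, UTP4 and UTP20. It began 35, 9, 13, 4 and 6 bases past the start in NOP2, PNO1, NOL6, UTP18 and FBL. Members with and without the motif both included genes that rose. Of the 20 members with an E-box in any window, 12 were called higher at H1R1, with a median log2 fold change of 0.50 over all 20, and of the 24 members without one, 14 were called, with a median of 0.36. The ETS core CCGGAAGT, searched on both strands, was found in 11 of the 52 windows (21.2%). The share was 4.14% for all windows and 6.57% for the windows of genes in the fit. The RRN3 windows overlap and hold the same ETS site, which is counted in each. A heat shock element was searched on both strands as 3 units of GAA or its complement TTC that alternate and are spaced by 2 bases. This element was found in none of the 52 windows, in 0.490% of all windows and in 0.344% of the windows of genes in the fit. A motif match describes the letters in a window and is not evidence of binding. MYC is a transcription factor that recognises the E-box. The MYC transcript had 295 and 291 CPM in the NC libraries, 111 and 119 in H1, 128 and 151 in H1R1, 305 and 329 in H1R6 and 246 in H1R18. It was below NC in both H1R1 libraries (log2 fold change of -1.08 against NC, adjusted p = 5.17e-11, edgeR quasi-likelihood test). The MAX transcript had 53.6 and 55.8 CPM in the NC libraries and 71.5 and 59.3 in H1R1. These values are transcript levels, and protein levels of MYC and MAX were not measured here. Whether either factor had a part in the changes of the members was not tested.

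Summed over the members, the share of counts was slightly above NC during heat, highest after 1 h of recovery and below NC at 18 h. The members took 0.817 to 0.818% of all counts in NC, 0.844 to 0.859% in H1, 0.979 to 1.06% in H1R1, 0.908 to 0.941% in H1R6 and 0.719% in H1R18, and no 2 of these ranges overlapped. Expression was tested with edgeR's quasi-likelihood test over all 21139 genes, and a gene was called where the Benjamini-Hochberg adjusted p was under 0.05. Of the 53 members, 5 were higher and 0 lower at H1 against NC, where 3.43% of all genes were higher and 1.77% lower. Without adjustment, 2 members were lower at H1 (p under 0.05), and DESeq2 called 0 lower. At H1R1, 32 members were higher, compared with 10.7% of all genes, and 0 were lower, compared with 9.53%. The unadjusted test and DESeq2 also gave 0 lower members at H1R1. At H1R6, 17 members were higher and 2 lower, compared with 3.004% and 4.03% of all genes. Of these 19 calls, 14 were lost in at least 1 alternative, and 6 higher members were counted when H1R6 replicate 2 was left out and 11 when NC replicate 1 was. No member was called lower without NC replicate 1, H1 replicate 2 or either H1R6 library, and 1 was without NC replicate 2 or H1 replicate 1. At H1R18, 2 members were higher and 11 lower, compared with 4.58% and 6.43%. Many of the genes tested had low counts. Among the 11955 genes at or above the average level of the lowest member, the share called higher was 4.39% for H1, 16.3% for H1R1, 4.91% for H1R6 and 7.26% for H1R18, and the share called lower was 2.60%, 13.8%, 6.77% and 10.3%.

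**Figure D1:**
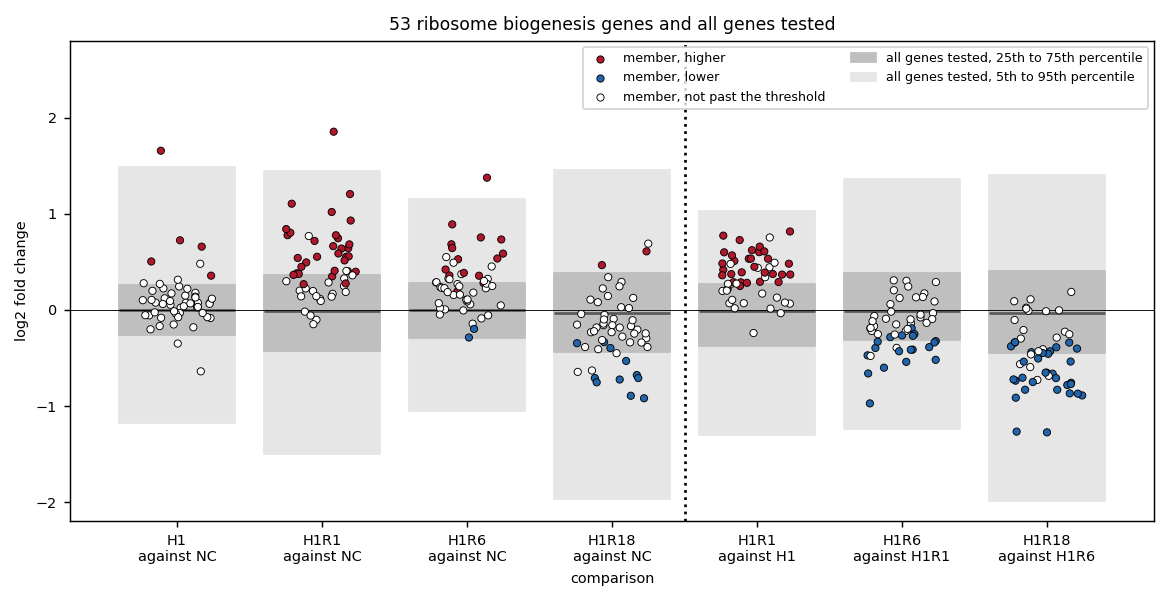
Log2 fold change (vertical axis) in 7 comparisons (horizontal axis) for the 53 ribosome biogenesis genes (points, coloured where the adjusted p was under 0.05) over the range of all 21139 genes tested (grey boxes with a line at the median). Most points lie above the median of all genes at H1R1 and H1R6 against NC, and most lie below it at H1R18.

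The median log2 fold change of the members against NC was 0.07 at H1, 0.40 at H1R1, 0.27 at H1R6 and -0.22 at H1R18, whereas the median of all genes was -0.01, -0.01, -0.01 and -0.03. The estimate was positive for 35, 49, 46 and 13 of the 53 members at these times. Among the 4 heated conditions, 42 members were highest at H1R1, 10 at H1R6 and 1 at H1, and 39 were lowest at H1R18. The H1R18 estimates come from a single library, and the same counts were not made over all genes. Both H1R1 libraries exceeded both NC libraries for 43 members and lay below them for 2, compared with 28.6% and 28.7% of all genes. At H1R18 the single library lay below both NC libraries for 35 members, compared with 40.1% of all genes, and above both for 11, compared with 36.7%. At H1 against NC, 4 of the 5 calls were lost when 1 library was left out, and only UBTF passed under every alternative tried. The count of higher members at H1 was 2 without NC replicate 1, 2 without H1 replicate 1 and 1 without H1 replicate 2. At H1R1 against NC, 24 of the 32 calls held under every alternative, and the remainder (POLR1A, NOP56, UTP4, UTP15, DDX10, TSR1, PNO1 and GRWD1) lost the call in 1 to 4 of 18.

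Successive times were also compared. From H1 to H1R1, 31 members rose and 0 fell, compared with 6.35% and 5.08% of all genes. From H1R1 to H1R6, 0 rose and 19 fell, compared with 6.43% and 8.93%. From H1R6 to H1R18, 0 rose and 32 fell, compared with 6.28% and 7.65%. Without adjustment there was 1 lower member from H1 to H1R1, 4 were higher from H1R1 to H1R6, and 0 were higher from H1R6 to H1R18, and DESeq2 called 0 in each of these. The rise from H1 to H1R1 counted 14 members without H1 replicate 2 and 13 without H1R1 replicate 1, while the median log2 fold change of the members was 0.36 and 0.26 in these fits and 0.37 with all libraries. Both H1R1 libraries exceeded both H1 libraries for 44 members, compared with 25.7% of all genes. The fall from H1R1 to H1R6 counted 9 members without H1R1 replicate 1, 8 without H1R6 replicate 1 and 10 without H1R6 replicate 2. With scaling by library size only, it counted 10 lower and 3 higher members. The fall from H1R6 to H1R18 counted 31 members with RLE scaling, 30 with upper-quartile scaling, 33 with library size only and 25 with DESeq2. Of its 32 calls, 22 held under every alternative and 10 were lost in at least 1. The lost calls were those of POLR1A, POLR1B, POLR1C, MYBBP1A, NOP58, RRP9, DKC1, BOP1, WDR12 and NOP16, each lost without H1R6 replicate 2. This fall rests on the single H1R18 library, which could not be left out of this comparison.

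**Figure D2:**
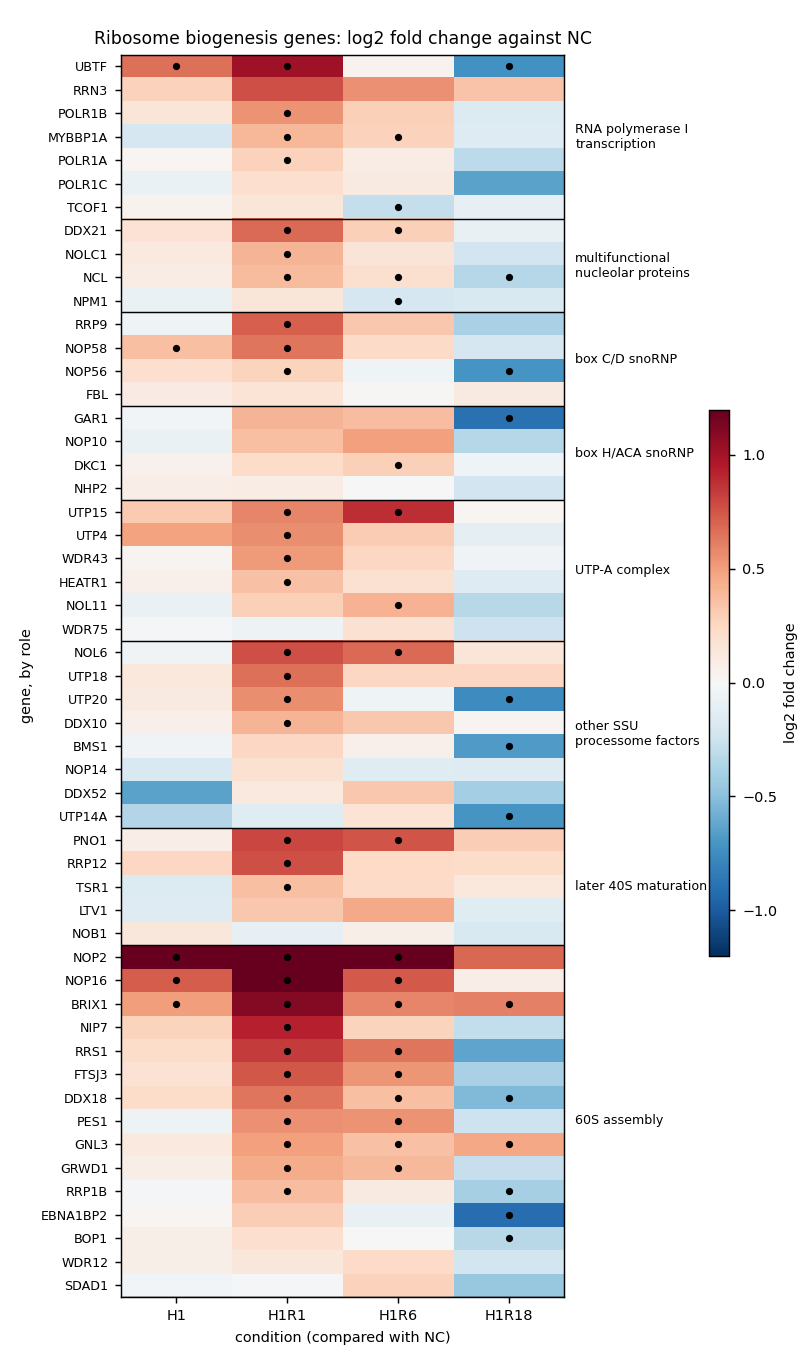
Log2 fold change against NC (colour, red higher and blue lower, with the scale ending at 1.2 in either direction, which NOP2 exceeded at 3 times and NOP16 at H1R1) of the 53 genes (rows, grouped by role) in 4 conditions (columns), with a dot where the adjusted p was under 0.05. The H1R1 column holds 32 dots, all of genes that rose, and the H1R18 column holds 11 dots of genes that fell and 2 of genes that rose.

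Among the 7 genes of RNA polymerase I transcription, UBTF changed most. UBTF (ENSG00000108312, chr17:44205033-44221626), the upstream binding factor that shapes ribosomal DNA for transcription, had 169 and 163 CPM in the NC libraries, 258 and 266 in H1, 347 and 326 in H1R1, 170 and 173 in H1R6 and 101 in H1R18. The H1 and H1R1 libraries were all above NC, those of H1R6 lay just above the NC range, and H1R18 was below every other library. UBTF was 1.58-fold higher at H1 (log2 fold change 0.66 ± 0.08 SE, adjusted p = 8.44e-07) and 2.03-fold higher at H1R1 (1.02 ± 0.08, adjusted p = 2.71e-11). It did not pass the test at H1R6 (0.05 ± 0.08, adjusted p = 0.823) and fell by 0.72 ± 0.11 on the log2 scale at H1R18 (adjusted p = 2.24e-05). UBTF had 2 promoter windows, and neither held an E-box, an ETS core or a heat shock element.

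POLR1B, which with POLR1A forms the catalytic centre of the polymerase, had 96.7 and 89.2 CPM in NC, 108 and 98.9 in H1, 140 and 131 in H1R1, 104 and 123 in H1R6 and 82.9 in H1R18. The H1R1 libraries stood above all others, and the 1.45-fold rise at H1R1 passed the test (0.54 ± 0.10, adjusted p = 0.000203). POLR1A rose less (0.28), and this call was lost without NC replicate 2 or H1R1 replicate 1, with adjusted p of up to 0.274. MYBBP1A, a nucleolar protein that binds the polymerase, rose at H1R1 (0.40) and H1R6 (0.28). The H1R6 call of MYBBP1A was lost without NC replicate 2 or H1R6 replicate 2, and its estimate ranged from 0.21 to 0.39 over the alternatives. The shared polymerase subunit POLR1C (0.20 at H1R1) and the initiation factor RRN3 (0.77) did not pass the test, and RRN3 was measured at 5.22 to 10.7 CPM only.

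TCOF1 encodes treacle, a nucleolar scaffold of the RNA polymerase I machinery, and was one of the genes the study knocked out in separate experiments. TCOF1 had 416 and 341 CPM in NC, 387 and 392 in H1, 434 and 403 in H1R1, 307 and 314 in H1R6 and 354 in H1R18. Only the H1R6 libraries lay outside the NC range as a pair on the low side, while H1R1 overlapped NC. TCOF1 did not pass the test at H1R1 (0.14 ± 0.08, adjusted p = 0.218) and fell by 0.29 ± 0.08 at H1R6 (adjusted p = 0.0227). This fall did not pass in 5 of 18 alternatives, among them without NC replicate 1 and without either H1R6 library, with adjusted p of up to 0.519.

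The 4 multifunctional nucleolar proteins are NCL, NPM1, DDX21 and NOLC1, and 3 of them rose at H1R1. Per kilobase of exon, FBL (156 RPKM, which is CPM divided by the exon length in kilobases), NCL (123), NPM1 (116) and DDX21 (78.3) were the highest of the 53 genes in NC. RRN3 (1.27), DDX52 (0.995) and NOP2 (0.605) were the lowest. Of the NOP2 exon bases in this length, 54.4% overlap another gene, and reads there were dropped. RRN3 has 4 pseudogene copies in the annotation, which may share its reads. NCL encodes nucleolin, an RNA-binding protein of the dense nucleolus, and had 1106 and 1087 CPM in NC, 1172 and 1166 in H1, 1480 and 1375 in H1R1, 1241 and 1263 in H1R6 and 863 in H1R18. Levels of the 5 conditions did not overlap, with H1R1 highest and H1R18 lowest. NCL rose 1.30-fold at H1R1 (0.38 ± 0.06, adjusted p = 8.59e-06) and by 0.19 ± 0.06 at H1R6 (adjusted p = 0.0353), and fell by 0.35 ± 0.07 at H1R18 (adjusted p = 0.00111). The rise at H1R6 did not pass in 7 of 18 alternatives, among them each fit without an NC, H1 or H1R6 library.

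DDX21, a helicase that links RNA polymerase I transcription with pre-rRNA processing, had 387 and 391 CPM in NC, 444 and 433 in H1, 640 and 608 in H1R1, 474 and 475 in H1R6 and 365 in H1R18. Its replicates were close and its conditions did not overlap. DDX21 was 1.60-fold higher at H1R1 (0.68 ± 0.07, adjusted p = 4.42e-09) and 1.22-fold higher at H1R6 (0.29 ± 0.07, adjusted p = 0.00611), but did not pass at H1R18 (-0.09 ± 0.08, adjusted p = 0.545). NOLC1, a chaperone of snoRNPs also known as Nopp140, rose at H1R1 (0.41). NPM1 encodes nucleophosmin, a major protein of the granular nucleolus, and had 955 and 980 CPM in NC, 932 and 903 in H1, 1076 and 1057 in H1R1, 825 and 863 in H1R6 and 852 in H1R18. The H1R1 libraries were above both NC libraries and the H1R6 libraries below them. The NPM1 difference at H1R1 did not pass (0.14 ± 0.06, adjusted p = 0.0896). It fell by 0.20 ± 0.06 at H1R6 (adjusted p = 0.0364), a call that was lost in 12 of 18 alternatives, including every fit without an NC, H1 or H1R6 library. NPM1 has 49 pseudogene copies in the annotation, which may share its reads.

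**Figure D3:**
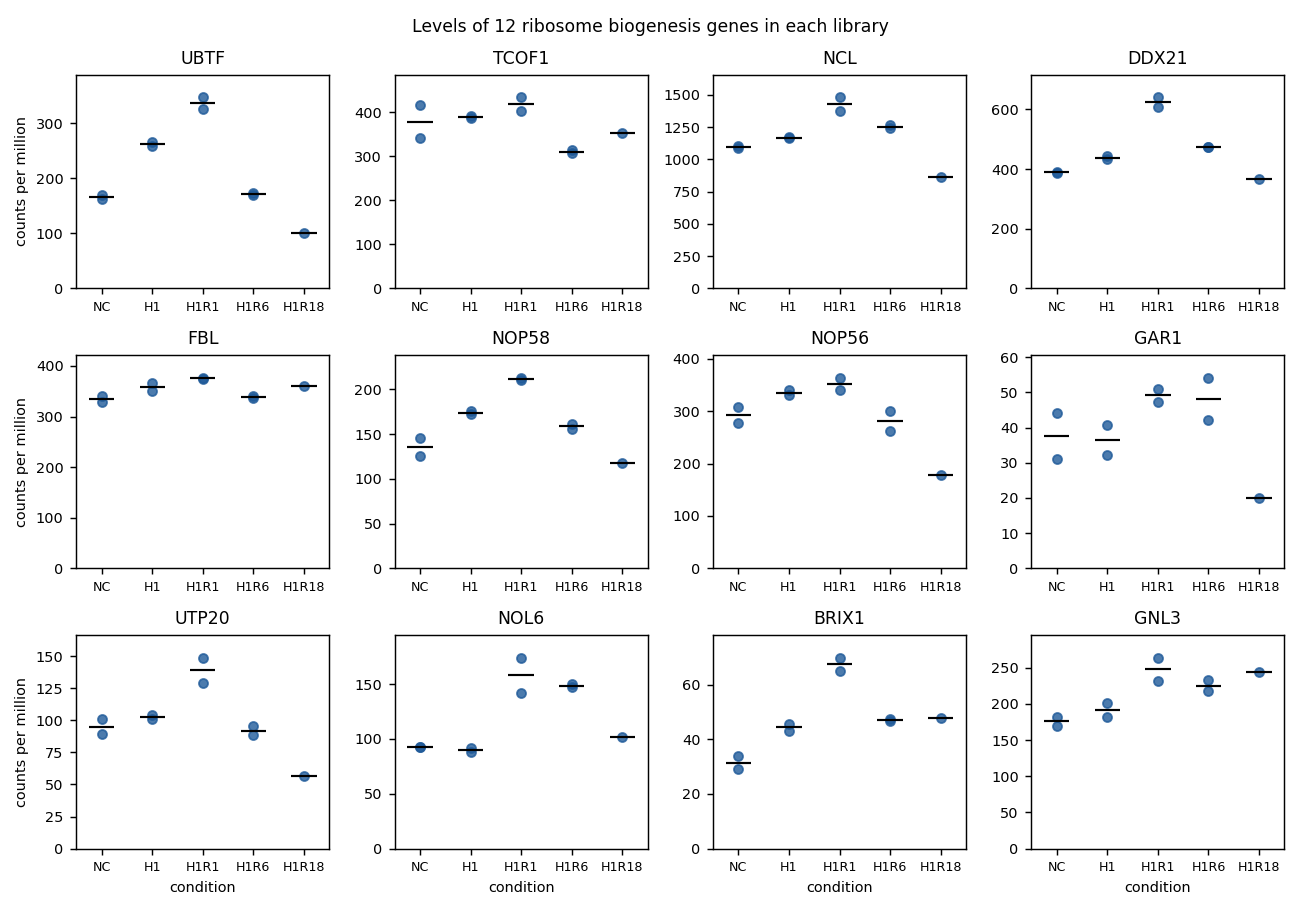
CPM (vertical axes, starting at 0 and scaled for each gene) of 12 ribosome biogenesis genes in each library (points), by condition (horizontal axes), with a line at the mean. UBTF, NCL, DDX21, NOP58 and UTP20 are highest in H1R1 and lowest in H1R18, FBL stays within 329 to 377 CPM, and BRIX1 and GNL3 remain above NC in H1R18.

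Of the 4 box C/D snoRNP proteins, 3 rose at H1R1. FBL encodes fibrillarin, the methyltransferase of the particle, and was also targeted by the study in separate experiments. FBL had 340 and 329 CPM in NC, 351 and 366 in H1, 374 and 377 in H1R1, 340 and 337 in H1R6 and 360 in H1R18. The H1R1 libraries were the highest, but the whole range was narrow and H1R6 lay within NC. FBL passed the test at none of the 4 times, with log2 fold changes of 0.10, 0.17, 0.02 and 0.11 (standard errors of 0.07 to 0.09) and a lowest adjusted p of 0.0954 at H1R1. NOP58, a core protein that holds the guide RNA, had 126 and 146 CPM in NC, 172 and 176 in H1, 210 and 213 in H1R1, 156 and 161 in H1R6 and 118 in H1R18. All H1, H1R1 and H1R6 libraries were above NC, and H1R18 was below. NOP58 rose 1.28-fold at H1 (0.36 ± 0.09, adjusted p = 0.0122) and 1.56-fold at H1R1 (0.64 ± 0.09, adjusted p = 2.68e-06), and the H1 call was lost without NC replicate 1 or either H1 library.

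NOP56, the partner of NOP58 in the core, had 277 and 308 CPM in NC, 341 and 330 in H1, 364 and 340 in H1R1, 263 and 300 in H1R6 and 179 in H1R18. The H1R6 libraries overlapped NC, and H1R18 was far below all others. NOP56 rose by 0.27 ± 0.08 at H1R1 (adjusted p = 0.0162, lost without NC replicate 1 or H1R1 replicate 1) and fell by 0.71 ± 0.11 at H1R18 (adjusted p = 1.90e-05), to 0.612 of its NC level. RRP9, the protein specific to the U3 particle that guides the first pre-rRNA cleavages, rose at H1R1 (0.72).

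Of the 4 box H/ACA snoRNP genes, 1 rose at H1R6, 1 fell at H1R18 against NC, and 3 (DKC1, GAR1 and NOP10) fell from H1R6 to H1R18. At H1R1, edgeR and DESeq2 called 0 of the 4 genes, 3 had an unadjusted p under 0.05, and the estimates ranged from 0.09 to 0.41. DKC1 encodes dyskerin, the pseudouridine synthase, and had 174 and 161 CPM in NC, 177 and 172 in H1, 209 and 182 in H1R1, 199 and 211 in H1R6 and 162 in H1R18. The H1R1 and H1R6 libraries were above NC and overlapped each other. DKC1 was called higher at H1R6 (0.28 ± 0.09, adjusted p = 0.0416), and this call was lost in 6 of 18 alternatives, DESeq2 among them. GAR1, which binds dyskerin, had 31.0 and 44.1 CPM in NC, 32.1 and 40.6 in H1, 51.0 and 47.4 in H1R1, 42.0 and 54.2 in H1R6 and 20.01 in H1R18. Only the H1R18 library was below all the others. GAR1 fell to 0.539 of its NC level at H1R18 (-0.89 ± 0.25, adjusted p = 0.0172), a call that was lost without NC replicate 2 (adjusted p = 0.162). NOP10 was higher by estimate at H1R6 (0.49) and NHP2 hardly moved at H1R6 (-0.01), and neither passed the test against NC.

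The UTP-A complex, also called t-UTP, binds the leading end of the pre-rRNA and connects transcription with the SSU processome. Of its 6 genes, 4 rose at H1R1 and 2 at H1R6. At H1R18, edgeR and DESeq2 called 0 lower, and 1 had an unadjusted p under 0.05. HEATR1, its largest protein, had 425 and 472 CPM in NC, 467 and 469 in H1, 577 and 565 in H1R1, 514 and 501 in H1R6 and 401 in H1R18. The H1R1 and H1R6 libraries were above NC, and H1 lay within it. HEATR1 rose 1.27-fold at H1R1 (0.35 ± 0.07, adjusted p = 0.000363) and did not pass at H1R6 (adjusted p = 0.120). UTP15 had 30.6 and 33.4 CPM in NC, 43.3 and 36.0 in H1, 50.1 and 45.5 in H1R1, 60.2 and 58.1 in H1R6 and 32.3 in H1R18. It was highest at H1R6, and H1R18 lay inside the NC range. UTP15 rose 1.85-fold at H1R6 (0.89 ± 0.15, adjusted p = 0.000127) and by 0.59 ± 0.15 at H1R1 (adjusted p = 0.00525), where the call was lost without NC replicate 1 or H1R1 replicate 1. From H1R6 to H1R18 it fell by 0.87 ± 0.19 (adjusted p = 0.00170).

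WDR43, another UTP-A subunit, had 117 and 140 CPM in NC, 130 and 132 in H1, 193 and 172 in H1R1, 153 and 150 in H1R6 and 124 in H1R18. Both H1R1 libraries were the highest, and H1 and H1R18 lay within NC. It rose 1.43-fold at H1R1 (0.51 ± 0.09, adjusted p = 0.000150). UTP4 rose at H1R1 (0.56) and NOL11 at H1R6 (0.42), and both calls were lost with DESeq2 and without NC replicate 1. WDR75 passed at none of the 4 times.

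Of the 8 other SSU processome factors, 4 rose at H1R1, 1 at H1R6 and 3 fell at H1R18. NOL6, a structural scaffold of the processome, had 92.6 CPM in both NC libraries, 92.0 and 88.3 in H1, 174 and 142 in H1R1, 147 and 150 in H1R6 and 102 in H1R18. H1 was at or below NC, while all libraries of H1R1 and H1R6 were far above it. NOL6 was 1.71-fold higher at H1R1 (0.78 ± 0.10, adjusted p = 6.73e-07) and 1.61-fold higher at H1R6 (0.68 ± 0.10, adjusted p = 1.96e-05). UTP20, an elongated scaffold protein, had 101 and 89.2 CPM in NC, 101 and 104 in H1, 149 and 129 in H1R1, 88.8 and 95.3 in H1R6 and 56.5 in H1R18. It was highest at H1R1, back among the NC values at H1R6 and lowest at H1R18. UTP20 rose 1.47-fold at H1R1 (0.55 ± 0.10, adjusted p = 0.000144) and fell by 0.75 ± 0.14 at H1R18 (adjusted p = 0.000430).

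BMS1, the GTPase of the processome, had 136 and 131 CPM in NC, 130 and 129 in H1, 164 and 153 in H1R1, 127 and 151 in H1R6 and 83.4 in H1R18. H1R6 overlapped NC, and H1R18 was the lowest library by a wide margin. BMS1 did not pass at H1R1 (0.25 ± 0.09, adjusted p = 0.0596) and fell by 0.68 ± 0.13 at H1R18 (adjusted p = 0.000438), to 0.625 of NC. BMS1 has 20 pseudogene copies that may share its reads. UTP18 (0.66) and the helicase DDX10 (0.40) rose at H1R1, the DDX10 call being lost with DESeq2 and without NC replicate 2 or H1R1 replicate 2. UTP14A, which activates a processome helicase, fell at H1R18 (-0.71), a call lost without NC replicate 1. NOP14 and the helicase DDX52 passed at none of the 4 times, and DDX52 had at most 13.2 CPM.

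Of the 5 genes for later maturation of the 40S subunit, 3 rose at H1R1 and 1 at H1R6. At H1R18, edgeR, DESeq2 and the unadjusted test called 0 lower. RRP12, an export factor of pre-ribosomes, had 89.1 and 77.8 CPM in NC, 95.4 and 103 in H1, 153 and 133 in H1R1, 102 and 95.6 in H1R6 and 97.8 in H1R18. Every heated library was above NC, and those of H1R1 stood apart from the rest. RRP12 was 1.71-fold higher at H1R1 (0.78 ± 0.10, adjusted p = 1.09e-06) and did not pass at the other times. PNO1, the partner of the nuclease NOB1 in forming the end of 18S rRNA, had 24.1 and 21.9 CPM in NC, 25.3 and 23.3 in H1, 46.4 and 33.3 in H1R1, 40.6 and 37.2 in H1R6 and 28.2 in H1R18. The H1R1 replicates differed widely, but all libraries of H1R1 and H1R6 were above those of NC and H1.

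PNO1 rose 1.74-fold at H1R1 (0.80 ± 0.18, adjusted p = 0.00167) and 1.69-fold at H1R6 (0.75 ± 0.18, adjusted p = 0.00755). The H1R1 call was lost without H1R1 replicate 1 (adjusted p = 0.115), and the H1R6 call without NC replicate 2 or H1R6 replicate 1. TSR1, a GTPase-like assembly factor, had 120 and 129 CPM in NC, 109 and 113 in H1, 170 and 150 in H1R1, 138 and 155 in H1R6 and 136 in H1R18. H1 was below NC and the recovery libraries were above it. It rose by 0.36 ± 0.09 at H1R1 (adjusted p = 0.00558), a call that was lost without NC replicate 1 or H1R1 replicate 1. NOB1 and LTV1 passed at none of the 4 times. Of the exon bases of LTV1, 34.7% overlap other genes.

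**Figure D4:**
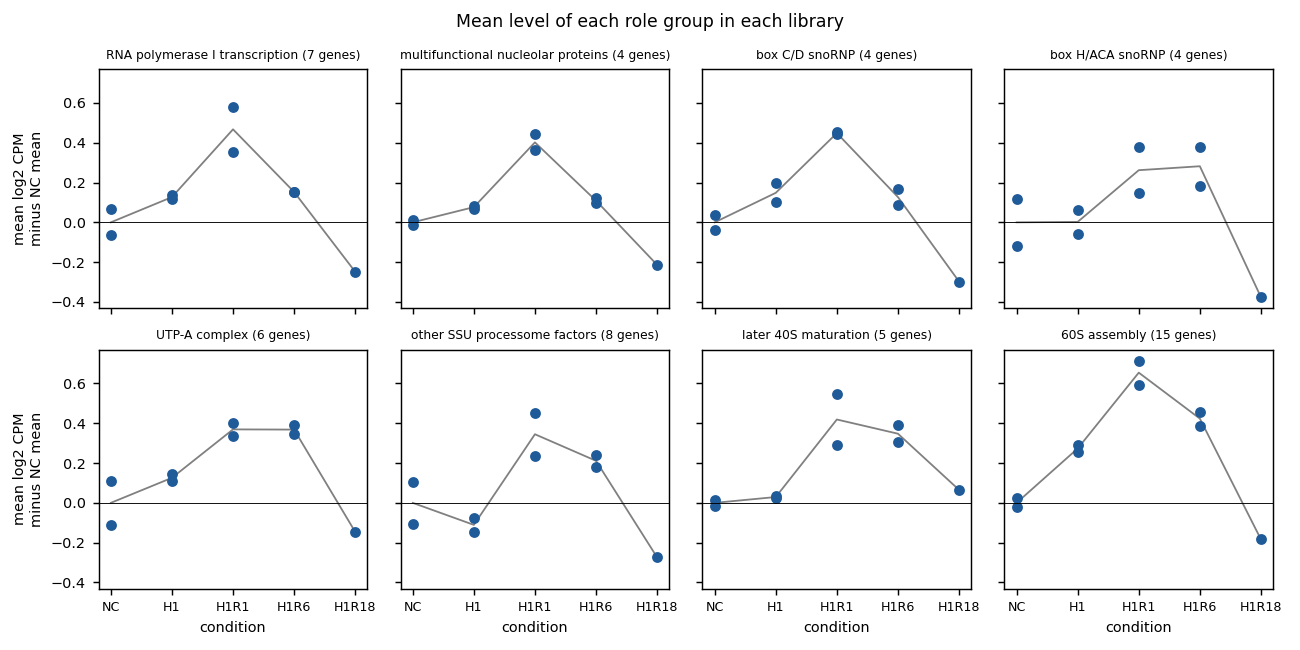
Mean log2 CPM of each of 8 role groups minus its NC mean (vertical axis, in log2 units) in each library (points) by condition (horizontal axis), with a line through the condition means. The groups peak at H1R1 or H1R6, and 7 of 8 are below the NC mean in the H1R18 library, the exception being later 40S maturation.

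The 60S assembly factors were the largest group. Of 15 genes, 3 rose at H1, 11 at H1R1, 9 at H1R6 and 2 at H1R18, where 4 fell. BRIX1, a factor that binds early pre-60S rRNA (ENSG00000113460, chr5:34915677-34925996), had 29.0 and 33.9 CPM in NC, 45.6 and 43.1 in H1, 65.0 and 69.9 in H1R1, 47.3 and 46.6 in H1R6 and 47.7 in H1R18. Every heated library was above both NC libraries. BRIX1 was the member called higher at all 4 times, with a 2.15-fold rise at H1R1 (1.10 ± 0.14, adjusted p = 6.91e-07) and rises of 0.50 ± 0.14 at H1 (adjusted p = 0.0349), 0.59 ± 0.14 at H1R6 (adjusted p = 0.00914) and 0.61 ± 0.18 at H1R18 (adjusted p = 0.0249). Its calls at H1, H1R6 and H1R18 were lost without NC replicate 1, with adjusted p of up to 0.258, 0.118 and 0.118 over all alternatives.

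NOP16, a pre-60S protein, had 22.2 and 23.5 CPM in NC, 37.8 and 37.6 in H1, 60.3 and 44.1 in H1R1, 36.7 and 39.1 in H1R6 and 24.1 in H1R18. H1, H1R1 and H1R6 were above NC without overlap, and H1R18 was close to NC. NOP16 rose 1.65-fold at H1 (0.72 ± 0.17, adjusted p = 0.00930), 2.31-fold at H1R1 (1.21 ± 0.17, adjusted p = 3.89e-06) and 1.66-fold at H1R6 (0.73 ± 0.17, adjusted p = 0.00680). The H1 and H1R6 calls were lost without NC replicate 1. GNL3 encodes nucleostemin, a nucleolar GTPase, and had 170 and 182 CPM in NC, 202 and 182 in H1, 264 and 232 in H1R1, 218 and 233 in H1R6 and 244 in H1R18. All libraries taken in recovery were above NC. GNL3 rose 1.41-fold at H1R1 (0.49 ± 0.09, adjusted p = 8.81e-05), 1.28-fold at H1R6 (0.36 ± 0.09, adjusted p = 0.00834, lost without NC replicate 1 or H1R6 replicate 2) and 1.38-fold at H1R18 (0.47 ± 0.11, adjusted p = 0.00315).

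NOP2, an rRNA cytosine methyltransferase (ENSG00000111641, chr12:6556863-6568691), had the largest fold changes from the smallest counts. It had 3.06 and 2.61 CPM in NC, 8.02 and 10.1 in H1, 10.0 and 10.8 in H1R1, 6.89 and 7.997 in H1R6 and 4.62 in H1R18. All heated libraries were above NC. The rises were 3.15-fold at H1 (1.66 ± 0.37, adjusted p = 0.00432), 3.61-fold at H1R1 (1.85 ± 0.36, adjusted p = 0.000362) and 2.59-fold at H1R6 (1.38 ± 0.37, adjusted p = 0.0193), and the H1 call was lost without H1 replicate 2. The H1R6 call was lost in 4 of 17 alternatives, among them without either NC library and without H1R6 replicate 2 (adjusted p of up to 0.139). Of the NOP2 exon bases, 54.4% lie in an overlapping gene of the annotation, and reads there were assigned to neither gene, so these values describe only a part of the transcript.

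RRP1B, a regulator of nucleolar phosphatase and of pre-60S processing, had 239 and 225 CPM in NC, 230 in both H1 libraries, 310 and 291 in H1R1, 240 and 260 in H1R6 and 176 in H1R18. H1R1 was the highest condition and H1R18 the lowest. It rose by 0.37 ± 0.08 at H1R1 (adjusted p = 0.000784) and fell by 0.40 ± 0.10 at H1R18 (adjusted p = 0.00920, lost without NC replicate 1). EBNA1BP2, another early pre-60S factor, had 84.2 and 66.3 CPM in NC, 80.9 and 72.9 in H1, 90.4 and 96.1 in H1R1, 65.0 and 77.4 in H1R6 and 40.03 in H1R18. H1R1 was above NC, H1 and H1R6 overlapped it, and H1R18 was the lowest. EBNA1BP2 did not pass at H1R1 (0.30 ± 0.12, adjusted p = 0.0801) and fell to 0.529 of NC at H1R18 (-0.92 ± 0.17, adjusted p = 0.000417).

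Of the other 60S factors, NIP7 (0.93), RRS1 (0.84), the methyltransferase FTSJ3 (0.75), the helicase DDX18 (0.64), PES1 (0.55) and the histone-binding factor GRWD1 (0.45) rose at H1R1. PES1, BOP1 and WDR12 form the PeBoW complex, and BOP1 (0.20) and WDR12 (0.14) did not pass at H1R1. DDX18 fell at H1R18 (-0.53). BOP1 was called lower at H1R18 (-0.33), and this call was lost in 14 of 17 alternatives. SDAD1 and WDR12 passed at none of the 4 times against NC.

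In all, 12 of the 53 members passed in no comparison with NC, and their mean NC levels spanned 5.26 CPM (RRN3) to 334 CPM (FBL). The most frequent pattern among the others was a call at H1R1 only, seen in 12 members, followed by calls at H1R1 and H1R6, seen in 9. A call only at H1R18, always lower, was seen in 5 members (GAR1, UTP14A, BMS1, BOP1 and EBNA1BP2). UBTF was the only member called higher at H1 and lower at H1R18.

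Of 125 other ribosome biogenesis genes, 121 were tested, and 10 were higher at H1, 52 at H1R1, 21 at H1R6 and 4 at H1R18, whereas 0, 0, 2 and 11 were lower. The shares higher were 8.26, 42.98, 17.4 and 3.31%, compared with 3.43, 10.7, 3.004 and 4.58% of all genes. The shares lower were 0.00, 0.00, 1.65 and 9.09%, compared with 1.77, 9.53, 4.03 and 6.43% of all genes. Among the 11955 genes at or above the average level of the lowest member, 10.3% were lower at H1R18. Without adjustment, 5 were lower at H1 and 1 at H1R1, and DESeq2 called 0 lower at both times. DESeq2 called 3 higher at H1, 43 at H1R1, 14 at H1R6 and 2 at H1R18. It called 0 lower at H1R6 and 8 lower at H1R18. At H1R1, 23 of 48 other 60S factors, 19 of 37 other 40S factors, 5 of 11 other RNA polymerase I factors, 3 of 17 exosome and exonuclease genes and 2 of 8 other snoRNP genes were higher. At H1R1 the largest estimates in this list were those of the helicase DDX47 (1.38, adjusted p = 0.0549) and RPF2 (1.14, adjusted p = 2.41e-08), and the lowest were those of IMP3 (-0.24) and NMD3 (-0.23), which did not pass. DDX47 did not pass either and was measured at only 3.06 and 1.04 CPM in NC and 7.02 and 3.99 in H1R1. At H1R6, UTP3 (1.03, adjusted p = 0.000133) and LSG1 (0.88, adjusted p = 0.000217) rose, and WDR18 (-0.42, adjusted p = 0.0172) and RSL24D1 (-0.38, adjusted p = 0.0238) were called lower, the WDR18 call being lost without any 1 of the NC or H1R6 libraries and the RSL24D1 call without NC replicate 2 or either H1R6 library. With 1 library left out, the number of these genes called higher ranged from 37 to 52 at H1R1, from 3 to 10 at H1 and from 9 (without H1R6 replicate 2) to 21 at H1R6. The count at H1 was 3 or 4 without any 1 of the NC or H1 libraries. EIF6, which keeps immature 60S subunits from joining and was targeted in the study, had 54.2 and 49.6 CPM in NC, 44.2 and 51.6 in H1, 61.8 and 53.9 in H1R1, 57.8 and 52.2 in H1R6 and 40.03 in H1R18. It passed at none of the 4 times against NC, with a lowest adjusted p of 0.192.

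**Figure D5:**
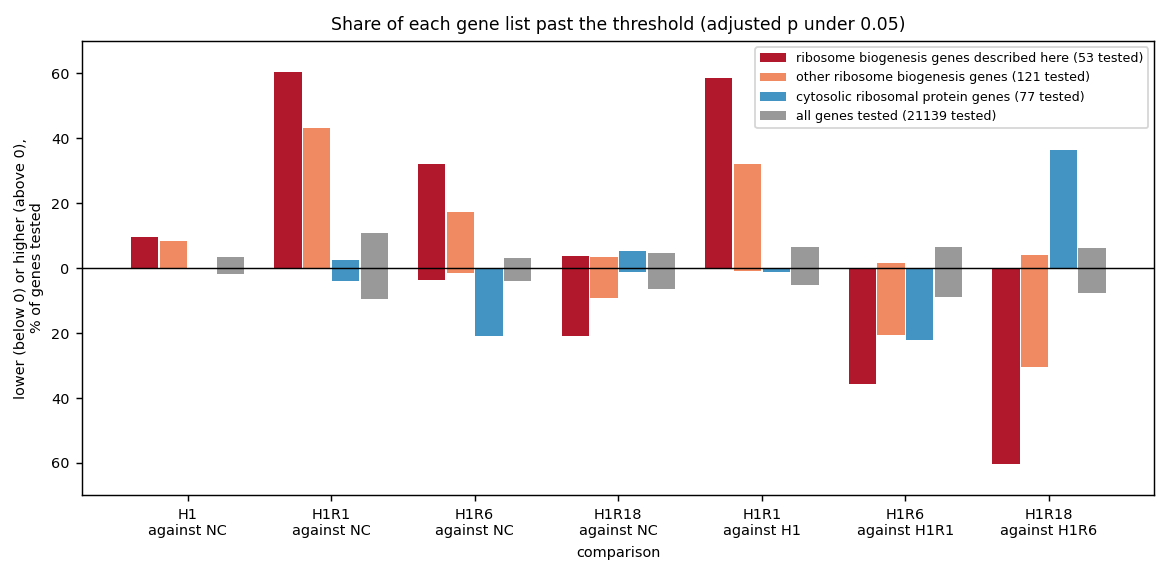
Share of each gene list (vertical axis, percent of genes tested, higher above and lower below the line at 0) past the threshold in 7 comparisons (horizontal axis). The 53 ribosome biogenesis genes and the 121 others have their tallest upward bars at H1R1, and the 77 cytosolic ribosomal protein genes have downward bars at H1R6 and an upward bar from H1R6 to H1R18.

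The genes for the ribosomal proteins themselves followed another course. Of 77 cytosolic ribosomal protein genes tested, 0 were called at H1 by edgeR or DESeq2, and without adjustment there were 2 higher and 1 lower. At H1R1, 2 were higher and 3 lower (0 to 3 and 1 to 3 with 1 library left out), with a median log2 fold change of 0.01 beside 0.40 for the members. This median turned to -0.02 with upper-quartile scaling and to -0.05 with scaling by library size only. At H1R6, 16 were lower and 0 higher (median -0.12 beside 0.27), and 1 was higher without adjustment. From H1R6 to H1R18, 28 rose and 0 fell, also unadjusted (median 0.19 beside -0.46). With 1 library left out, the number lower at H1R6 ranged from 7 (without H1R6 replicate 1) to 19 and was 9 without H1R6 replicate 2 and 10 without NC replicate 2, and the number higher from H1R6 to H1R18 ranged from 15 (without H1R6 replicate 1) to 30 and was 17 without H1R6 replicate 2. DESeq2 called 16 lower and 0 higher at H1R6 and 27 higher and 0 lower from H1R6 to H1R18. RPS10 (0.53, adjusted p = 0.0393, lost without H1R1 replicate 1 or either NC library) and RPL17 (0.53, adjusted p = 0.137) had the largest estimates at H1R1, and RPL13A (-0.32, adjusted p = 0.000388) and RPS9 (-0.27, adjusted p = 0.717) the lowest. At H1R6, RPL3 fell (-0.38, adjusted p = 9.04e-05), RPS9 (-0.98), RPL36A (0.28) and RPS10 (0.25) did not pass, and many ribosomal protein genes have pseudogene copies that may share their reads.

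Of 12 RNAs that guide or catalyse pre-rRNA cleavage, such as the U3 copies, 7 were tested. By edgeR, 2, 5, 2 and 3 of these were lower at H1, H1R1, H1R6 and H1R18, and 0 were higher. DESeq2 called 0, 0, 0 and 1 lower and 0 higher, and the unadjusted test 1 higher, at H1R6. With 1 library left out, the number lower at H1R1 ranged from 1 (without NC replicate 2) to 5 and was 2 or 3 without any 1 of the H1R1 or H1R6 libraries. SNORD3B-2 had 428 and 105 CPM in NC, 76.2 and 83.5 in H1R1 and 61.99 and 111 in H1R6. Its NC libraries differed widely, and the H1R6 libraries lay on either side of NC replicate 2. SNORD3B-2 was called lower at H1R1 (-1.76, adjusted p = 0.000141) and H1R6 (-1.64, adjusted p = 0.000778), but without NC replicate 1 the estimates were -0.40 (adjusted p = 0.334) and -0.26 (adjusted p = 0.669). SNORD14A was called lower at H1R1 (-0.40, adjusted p = 0.0347), a call lost without NC replicate 2 (-0.21, adjusted p = 0.395) or either H1R1 library. SNORD3C (-0.13) and SNORD3B-1 (-0.15) did not pass at H1R1. At H1R6, SNORD13 (-0.32), SNORD3C (0.25) and SNORD3B-1 (0.49) did not pass. The U3 copies are nearly identical and share reads, so the single copies are uncertain.

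Small nucleolar RNAs also lie inside the members. The genes of 24 snoRNAs lie within 8 members (NCL, NOP56, NOP58, DKC1, WDR43, NOL11, TSR1 and GNL3), and 13 of them had enough counts to be tested. At H1R1, edgeR and DESeq2 called 0 of the 13, 1 had an unadjusted p under 0.05, and the median log2 fold change was -0.27, whereas their hosts NCL, NOP58, WDR43, TSR1 and GNL3 rose and NOL11 did not pass. No snoRNA of NOP56 or DKC1 was tested. SNORD11 inside NOP58 fell at H1R6 (-1.09 ± 0.28, adjusted p = 0.0123), when its host was at 0.23 and did not pass. SNORD19 inside GNL3 had 1.22 and 0.261 CPM in NC and 6.67 CPM in H1R18, where it rose (3.05 ± 0.81, adjusted p = 0.0117) on few counts. DESeq2 called neither. The SNORD11 call was lost without NC replicate 1 or either H1R6 library (adjusted p of up to 0.207), and the SNORD19 call without NC replicate 2 (adjusted p = 0.0791). Whether short RNAs were retained in the libraries was not tested.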

How the data were processed

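RNA-seq data of 9 HEK293T libraries were used, each grouped by the treatment in its description. The deposited table holds raw counts of reads per gene. According to its header and the submitters' notes, the authors trimmed reads with cutadapt 4.1, aligned them to GRCh38 with HISAT2 2.2.1 and counted exon reads of Ensembl release 104 with featureCounts 2.0.2. No strand option was set, so reads of overlapping antisense genes cannot be told apart, reads in overlapping exons were dropped, and each read of a pair was counted. Between 81.8 and 87.5% of the values above 0 were even, and counts divided by 2 were tried as an alternative. Gene names matched 99.7% of the 60664 identifiers. The columns of values not mapped to a sample numbered 0.

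Genes were kept with edgeR 4.0.16 (R 4.3.3) filterByExpr at a minimum count of 10 and a minimum total of 15. TMM scaling (factors 0.957 to 1.03), glmQLFit and glmQLFTest were applied to all 9 libraries in 1 fit (common biological coefficient of variation 0.0905), with Benjamini-Hochberg adjustment over 21139 genes in each of 7 comparisons. An adjusted p under 0.05 was called, and CPM are TMM-scaled. Errors are standard errors derived from the quasi-likelihood test, as the absolute log2 fold change divided by the square root of its F statistic. Both libraries of a group differed by more than sampling noise, with a chi-square per degree of freedom of 1.72 to 2.35 on halved counts. Promoter windows came from RefSeq (GRCh38.p14).

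Members and lists were chosen with earlier results of these data known. Values per library are given for the most abundant member and the 2 smallest adjusted p of each role group, for the 4 largest rises and falls in each comparison with NC, and for TCOF1 and FBL. Alternatives covered scaling, DESeq2 1.42.0, the filter, halved counts, the conditions fitted, a replicate block and each library left out.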

Additional observations from a re-analysis of the deposited data

Results flagged for a closer look

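The direction of the members differed between successive times, each step being tested as a difference between 2 conditions with edgeR. Of the 53 members, 31 rose from H1 to H1R1, 19 fell from H1R1 to H1R6 and 32 fell from H1R6 to H1R18. These steps share libraries, so a high value at H1R1 or H1R6 enters 2 of them with opposite sign. The members that were called at H1R18 and also at an earlier time against NC, in the opposite direction, were UBTF, NCL, NOP56, UTP20, RRP1B and DDX18. UBTF had log2 fold changes of 0.36 from H1 to H1R1, -0.97 from H1R1 to H1R6 and -0.77 from H1R6 to H1R18. For NCL the same steps were 0.29, -0.19 and -0.54. NOP56 had -0.32 from H1R1 to H1R6 and -0.65 from H1R6 to H1R18. For UTP20 the steps were 0.45, -0.60 and -0.71. For RRP1B they were 0.39, -0.27 and -0.51, and for DDX18 they were 0.42, -0.28 and -0.89. The last step of each gene rests on the single H1R18 library.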

How the results depend on the processing

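No call of a member changed its direction under any alternative, and the median of the members kept its sign in each comparison. With 1 library left out, the number of higher members ranged from 1 to 5 at H1, from 6 to 17 at H1R6, from 1 to 2 at H1R18 and from 13 to 32 from H1 to H1R1, and the number of lower members from 0 to 2 at H1R6 and from 8 to 19 from H1R1 to H1R6. The lowest values were reached without H1 replicate 2, H1R6 replicate 2, NC replicate 1, H1R1 replicate 1, several libraries in turn and H1R6 replicate 1, respectively. The number of lower members at H1R6 was 1 with RLE scaling, library size only, no filter, 10 counts in every library or halved counts, and 0 with only the conditions compared. DESeq2 called 1 higher member at H1R18. From H1R1 to H1R6, library size only gave 3 higher and 10 lower members and no filter gave 12 lower. That scaling moved the median of all genes by 0.09, the largest shift of any scaling. The cause of these differences was not tested.

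Replicate numbers are shared between groups, but same-numbered libraries did not deviate together (correlations of -0.0331 to 0.0391 over 11586 genes). A replicate block gave 32 higher members at H1R1, 12 lower at H1R18 and 31 lower from H1R6 to H1R18.

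Depth limits low genes: the standard error of a log2 fold change against NC at H1R1 ranged from 0.0568 to 0.364 with a median of 0.106, and at H1R18 its median was 0.141. With 2 libraries a group, small differences remain undetected, and comparisons with H1R18 could not be repeated without its library.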
